A study of Arabidopsis thaliana with 21 samples.

Results

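The expression of 9 genes that stand at the ends of the jasmonate pathway was followed in 30-day-old Arabidopsis plants of 7 genotypes. They are the plant defensin genes PDF1.2A (AT5G44420), PDF1.2B (AT2G26020), PDF1.2C (AT5G44430) and PDF1.3 (AT2G26010), the transcription factor genes ORA59 (AT1G06160) and ERF1 (AT3G23240), the pathogenesis-related gene PR4 (AT3G04720), and the vegetative storage protein genes VSP1 (AT5G24780) and VSP2 (AT5G24770). The genes were chosen by name, as outputs or direct regulators of the branches, with earlier results of these data known. Their 9 loci were taken from the 32548 genes of the deposited table. All 9 passed the filter on low values that 23290 genes passed.

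Jasmonate is the hormone that plants make on wounding, insect feeding and attack by necrotrophic fungi. When ethylene is also present, the transcription factors EIN3 and EIL1 switch on ORA59 and ERF1, whose proteins bind a promoter element called the GCC box and drive PDF1.2, PR4 and basic chitinase. When ethylene is absent, MYC transcription factors drive the other branch, for which VSP1 and VSP2 are the usual marker genes, and each branch is known to hold the other down.

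RNA was sequenced from 3 libraries of each genotype, 21 in all. The mutants were gcn5, which affects the histone acetyltransferase GCN5, ada2b-c and ada2a, which affect the adaptor proteins ADA2b and ADA2a that bind it, spc, and 2 double mutants, named ada2b-cada2a and ada2b-cspc, all labelled homozygous. The wild type was Col-0, grown with them on plates and then in soil in long days. In published work ADA2b is a subunit of the SAGA complex, and ADA2a and SPC are subunits of a plant GCN5 complex. The sources used here name neither the kind of mutation nor the locus behind spc. The plants are labelled seedlings. No label says whether libraries came from separate plants, so the p-values cover no more than the spread among these libraries, which may be technical.

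Values are the authors' deposited signal per gene, which is not whole, whose adjustment is not given in the sources used here and whose sequencing depth is unknown. Changes are given as log2 ± SE of a limma fit across all genes on log2(value + 1), with p-values adjusted over the 23290 genes tested, and calls were made where the adjusted p was under 0.05. This scale understates changes of genes with low signal. Column totals lay between 27411448 and 58700421. Signal of the mutated genes separated the groups in part. GCN5 (AT3G54610) lay at 260.2 to 290.1 in gcn5 and at 332 to 429 in Col-0. ADA2A (AT3G07740) lay at 18.0 to 57.4 in ada2a, at 1.49 to 7.35 in ada2b-cada2a and at 42.3 to 80.5 in Col-0. ADA2B (AT4G16420) lay at 567 to 615 in ada2b-c, at 261 to 369 in ada2b-cada2a, at 361 to 480.4 in ada2b-cspc and at 341 to 737 in Col-0, so it did not separate these lines from the wild type.

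The libraries also differed along transcript length. The slope of a library's log2 deviations per doubling of transcript length was -0.64 to 0.21 in gcn5, -1.49 to -0.75 in spc, -1.29 to -0.80 in ada2a, 0.80 to 0.94 in ada2b-cspc, 0.69 to 0.95 in ada2b-cada2a, 0.97 to 1.05 in ada2b-c and -0.64 to -0.22 in Col-0. A high slope means that short transcripts read low. The slopes of gcn5 overlap those of Col-0, and those of the other 5 mutants do not. The defensin transcripts are short (548 to 620 nt), those of ORA59, ERF1 and PR4 intermediate (988 to 1134 nt), and those of VSP1 and VSP2 longer (1318 and 1423 nt). Changes are therefore given also after a length and GC correction, in which the dependence of a library's values on the length and GC content of transcripts was subtracted. The origin of the trend was not tested.

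The 4 defensins form 2 neighbouring pairs. PDF1.2A and PDF1.2C lie on chromosome 5 (chr5:17906968-17907638 and chr5:17908850-17909507, minus strand, TAIR10.1), and PDF1.3 and PDF1.2B on chromosome 2 (chr2:11087280-11088001 and chr2:11089123-11089805, plus strand). Each gene has 2 exons, a coding sequence of 243 nt and no overlapping gene. The coding sequences below (RefSeq, TAIR10.1) are shown because the 4 genes are so alike that reads could be assigned to the wrong copy. Capitals mark bases that differ from PDF1.2A.
PDF1.2A: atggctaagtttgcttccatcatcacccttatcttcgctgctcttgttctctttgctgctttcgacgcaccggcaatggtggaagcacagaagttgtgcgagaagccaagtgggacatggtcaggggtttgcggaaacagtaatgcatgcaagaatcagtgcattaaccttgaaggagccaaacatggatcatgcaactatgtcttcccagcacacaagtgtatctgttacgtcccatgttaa
PDF1.2B: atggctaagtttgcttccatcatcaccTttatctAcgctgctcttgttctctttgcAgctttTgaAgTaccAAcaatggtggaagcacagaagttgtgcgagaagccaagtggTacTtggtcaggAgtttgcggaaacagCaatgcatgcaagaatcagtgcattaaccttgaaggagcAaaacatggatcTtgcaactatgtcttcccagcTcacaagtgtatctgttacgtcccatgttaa
PDF1.2C: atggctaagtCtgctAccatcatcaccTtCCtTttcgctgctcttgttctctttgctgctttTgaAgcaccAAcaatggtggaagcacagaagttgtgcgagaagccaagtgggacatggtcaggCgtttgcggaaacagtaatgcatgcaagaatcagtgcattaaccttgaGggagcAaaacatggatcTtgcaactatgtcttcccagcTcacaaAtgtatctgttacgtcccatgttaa
PDF1.3: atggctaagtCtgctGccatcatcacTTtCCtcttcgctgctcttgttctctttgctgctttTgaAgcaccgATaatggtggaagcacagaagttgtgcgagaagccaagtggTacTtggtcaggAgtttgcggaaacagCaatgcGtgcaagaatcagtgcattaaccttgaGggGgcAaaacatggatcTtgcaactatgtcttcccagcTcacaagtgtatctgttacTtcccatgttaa
PDF1.2B, PDF1.2C and PDF1.3 differ from PDF1.2A at 15, 16 and 21 of these bases, and are 93.8%, 93.4% and 91.4% identical to it. No window of 150 nt, the length of 1 read, was shared between any of the 4 transcripts and another transcript of the genome. Between 0.6% and 5.0% of windows of 50 nt were shared, each within a neighbouring pair. How the authors counted reads that match several genes is not given in the sources used here, so the values of single copies are uncertain where such reads were split.

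The defensin genes rose in gcn5 by more than in any other mutant before the correction. PDF1.2A, which encodes a secreted antifungal peptide, stood at 13245, 19312 and 31666 in gcn5, against 479.5, 494 and 670.0 in Col-0. All gcn5 libraries lay far above all Col-0 libraries, and the change of 5.21 ± 0.36 (adjusted p = 1.17e-09) is a 37.0-fold rise. PDF1.2C stood at 7685, 11748 and 19247 in gcn5, against 119.8, 235 and 269 in Col-0, a rise of 5.93 ± 0.42 (60.9-fold, adjusted p = 1.52e-09). PDF1.2B rose by 3.71 ± 0.38, to 4485 ± 1972 in gcn5 against 329 ± 83.6 in Col-0, and PDF1.3 by 4.05 ± 0.39, to 1463 ± 662 in gcn5 against 85.3 ± 31.3 in Col-0 (mean ± SD, n = 3 each). The libraries of these genotypes did not overlap for any copy. In bulk RNA, more signal per cell and more cells that express a gene cannot be told apart. The length and GC correction left the rises at 3.93 to 6.11. Within gcn5, replicate 3 was highest for all 4 copies and had the lowest length slope of the 3 libraries, and the part of that slope in the spread was not tested.

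**Figure D1:**
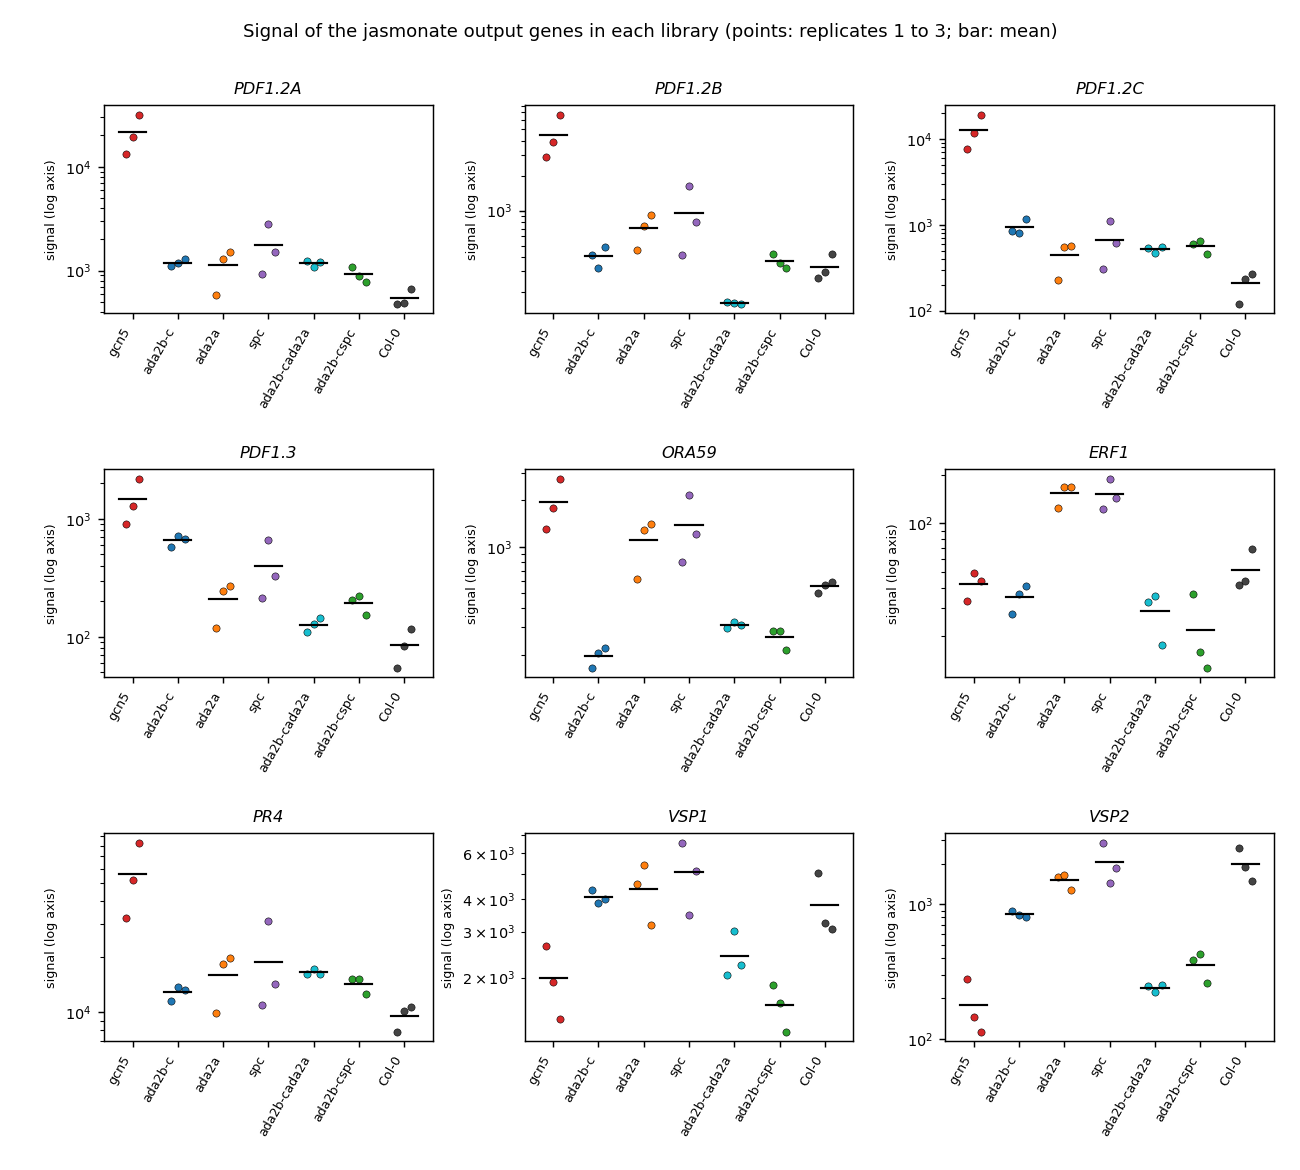
Signal of each of the 9 genes (log axis) in the 3 libraries of each genotype, with Col-0 on the right, and bars at the means. The gcn5 libraries stand alone at the top for PDF1.2A (13245 to 31666), PDF1.2B, PDF1.2C and PR4, and overlap with ada2b-cada2a and ada2b-cspc at the bottom for VSP2 (112.5 to 276), whereas ERF1 is highest in ada2a and spc.

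Of the 9 genes, 8 were called in gcn5 against Col-0, with 6 higher and 2 lower, where 34.3% of all genes tested were called. Their median change was 2.46, against 0.00 over all genes. After the correction 8 genes were called again, 6 higher and 2 lower, against 41.6% of all genes.

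In the other mutants the defensins moved less before the correction, and what the values show depends on whether the correction is applied. In ada2b-c PDF1.3 rose by 2.99 ± 0.39 (adjusted p = 1.29e-06), to 581, 712 and 681, against 54.6, 84.2 and 117.2 in Col-0, with no overlap. PDF1.2C rose by 2.23 ± 0.42 and PDF1.2A by 1.14 ± 0.36 in ada2b-c, and PDF1.2B, at 409 ± 86.9 in ada2b-c and 329 ± 83.6 in Col-0, did not pass (0.32, adjusted p = 0.469). After the correction the 4 changes in ada2b-c were 3.19, 2.67, 4.36 and 5.18 for PDF1.2A, PDF1.2B, PDF1.2C and PDF1.3, and all passed.

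In ada2a the correction turned the direction of all 4 copies, and in spc that of the 3 PDF1.2 copies. PDF1.2A stood at 583, 1295 and 1512 in ada2a, against 479.5, 494 and 670.0 in Col-0, so that replicate 1 of ada2a lay inside the wild-type range. Its change of 0.95 ± 0.36 passed (adjusted p = 0.0426), and so did those of PDF1.2B (1.08), PDF1.2C (1.07) and PDF1.3 (1.28). All 4 were negative after the correction, at -0.57, -0.65, -0.54 and -0.31, and the first 3 of them passed in that direction. Before the correction all 4 calls in ada2a were also lost without ada2a replicate 2 (0.79, 1.02, 0.86 and 1.13), without ada2a replicate 3 (0.68, 0.87, 0.86 and 1.06) or without Col-0 replicate 1 (0.86, 0.94, 0.72 and 1.0), and those of the PDF1.2 copies without Col-0 replicate 2. With every library scaled to the same total, PDF1.2A, PDF1.2B and PDF1.2C did not pass in ada2a (0.57, 0.71 and 0.70), and PDF1.3 did (0.90). In spc PDF1.2A stood at 920.4, 2839 and 1499, against 479.5, 494 and 670.0 in Col-0, a change of 1.54 ± 0.36 (adjusted p = 0.00249). Replicate 2 of spc was the highest library of that genotype for every defensin and had the lowest length slope of all 21 libraries. PDF1.2B (1.34), PDF1.2C (1.58) and PDF1.3 (2.13) passed in spc as well, the first of them not without spc replicate 2 (0.84, adjusted p = 0.0712). After the correction PDF1.2A and PDF1.2C stood at -0.03 and -0.07 and did not pass, PDF1.2B fell by 0.41 and PDF1.3 rose by 0.48. With each library's length slope entered as a covariate instead, no defensin passed in ada2a (-0.08 to 0.22) or in spc (0.07 to 0.85).

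In the double mutants the copies split, and which of them passed depended on the scaling and the correction. PDF1.2C rose by 1.38 ± 0.42 in ada2b-cada2a (adjusted p = 0.00719), to 530.0, 469 and 548, and by 1.5 ± 0.42 in ada2b-cspc (adjusted p = 0.00381), to 592.5, 645 and 457.5, against 119.8, 235 and 269 in Col-0. PDF1.2B fell in ada2b-cada2a (-0.99 ± 0.38, adjusted p = 0.0273), to 165, 161 and 158, against 264, 299 and 423 in Col-0, and did not pass in ada2b-cspc (0.18, adjusted p = 0.696). All ada2b-cada2a libraries lay above Col-0 for PDF1.2C and below it for PDF1.2B. PDF1.2A rose in ada2b-cada2a (1.12 ± 0.36, adjusted p = 0.0109) and did not pass in ada2b-cspc (0.75, adjusted p = 0.0743), and PDF1.3 rose in ada2b-cspc (1.23 ± 0.39, adjusted p = 0.00995) and did not pass in ada2b-cada2a (0.63, adjusted p = 0.171). Without Col-0 replicate 1 the calls of PDF1.2C in ada2b-cada2a (1.03, adjusted p = 0.053) and PDF1.3 in ada2b-cspc (0.94, adjusted p = 0.0612) were lost, and without any single ada2b-cada2a library or Col-0 replicate 3 that of PDF1.2B (-1.01 to -0.80). With every library scaled to the same total, PDF1.2A (1.55 and 1.24), PDF1.2C (1.82 and 1.99) and PDF1.3 (1.06 and 1.71) passed as higher in ada2b-cada2a and ada2b-cspc. PDF1.2B then passed in neither (-0.56, adjusted p = 0.131, and 0.66, adjusted p = 0.0743). After the correction all 4 copies were higher than in Col-0 in both double mutants, by 0.77 to 3.05 in ada2b-cada2a and 2.0 to 3.24 in ada2b-cspc. The direction of PDF1.2B in ada2b-cada2a thus turned.

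Across the genotypes the order of the PDF1.2A means was gcn5 (21408), spc (1753), ada2b-c (1194), ada2b-cada2a (1178), ada2a (1130), ada2b-cspc (920.4) and Col-0 (548). The libraries of gcn5 and spc did not overlap, nor did those of ada2b-cspc and Col-0, and every other pair of neighbours in the order overlapped. The 3 copies PDF1.2A, PDF1.2B and PDF1.2C added together rose by 5.09 in gcn5, 1.24 in ada2b-c, 1.01 in ada2a and 1.49 in spc, and did not pass in ada2b-cada2a (0.80, adjusted p = 0.0634) or ada2b-cspc (0.79, adjusted p = 0.0656).

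**Figure D2:**
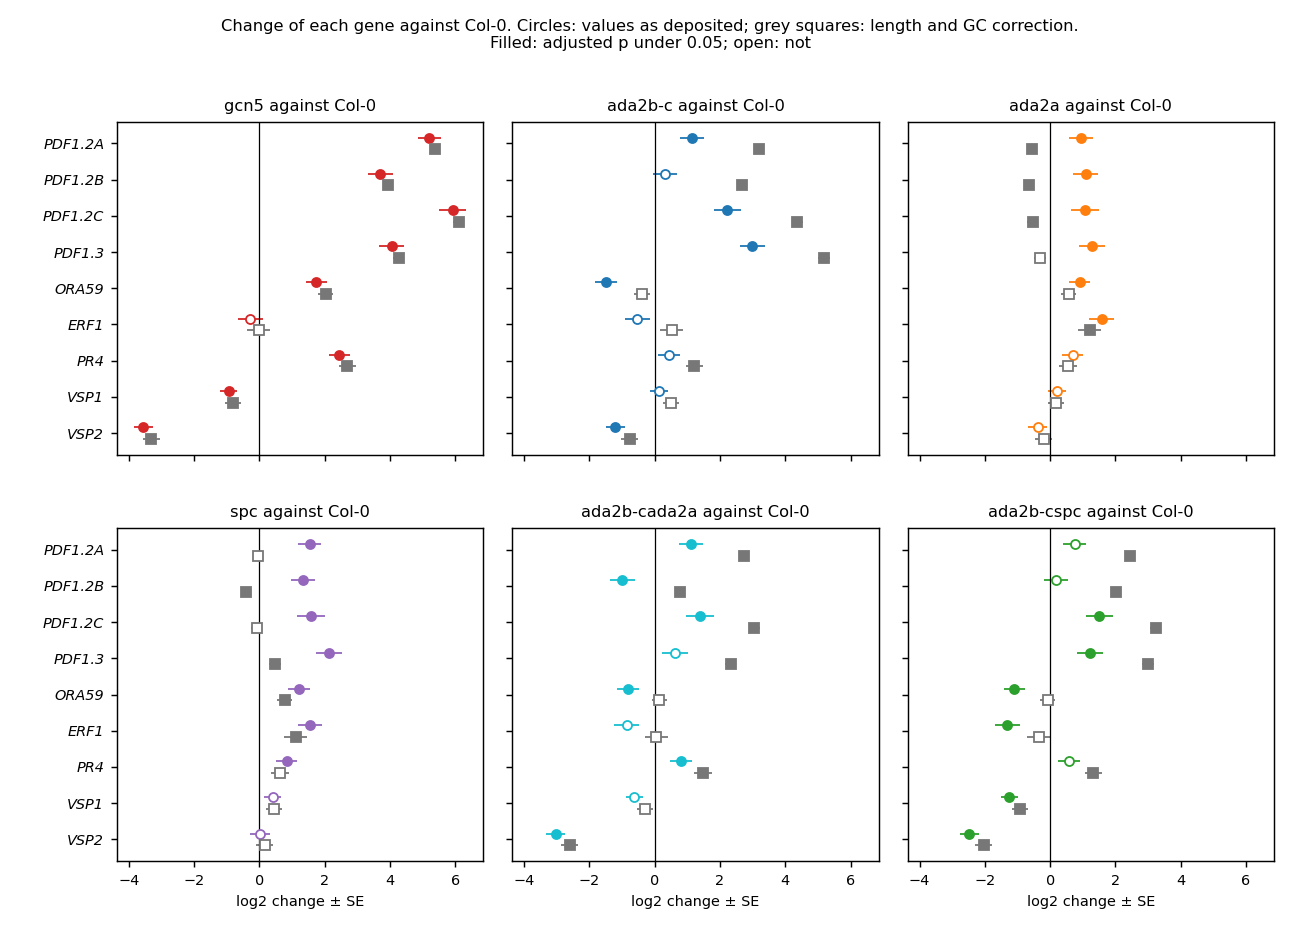
Change of each gene against Col-0 (log2 ± SE) in the 6 mutants, as deposited (circles) and after the length and GC correction (grey squares), filled where the adjusted p was under 0.05. In gcn5 both sets of points lie together, from 5.93 and 6.11 for PDF1.2C to -3.56 and -3.31 for VSP2, and in ada2b-c the correction moves PDF1.2A from 1.14 to 3.19.

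ORA59, the ethylene response factor that is the main known activator of PDF1.2, did not follow the defensins in every genotype. It stood at 1302, 1776 and 2757 in gcn5, at 801, 2153 and 1212 in spc, at 614, 1284 and 1402 in ada2a, at 283, 283 and 213 in ada2b-cspc, at 296, 327 and 312 in ada2b-cada2a, at 164.0, 205 and 221 in ada2b-c and at 503, 564 and 590.4 in Col-0. Every library of gcn5, ada2a and spc lay above every Col-0 library, and every library of the 3 genotypes that carry ada2b-c lay below. The rise in gcn5 was 1.75 ± 0.33 (3.36-fold, adjusted p = 0.000316), that in spc 1.21 ± 0.33 (adjusted p = 0.00626) and that in ada2a 0.91 ± 0.33 (adjusted p = 0.0346). ORA59 fell by 1.49 ± 0.33 in ada2b-c (adjusted p = 0.000483), and also in ada2b-cspc (-1.1, adjusted p = 0.00645) and ada2b-cada2a (-0.82, adjusted p = 0.0355). The ada2a call was lost without any single library of Col-0 or ada2a replicate 2 or 3 (0.69 to 0.96), the spc call without spc replicate 2 (0.84, adjusted p = 0.0551), and the ada2b-cada2a call without any of its own libraries or Col-0 replicate 2 or 3 (-0.86 to -0.77). With every library scaled to the same total, ORA59 did not pass in ada2a (0.53, adjusted p = 0.113), ada2b-cada2a (-0.39, adjusted p = 0.216) or ada2b-cspc (-0.61, adjusted p = 0.0519). It still passed in gcn5 (1.99), spc (0.94) and ada2b-c (-0.95).

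The falls of ORA59 lost their calls after the correction, and the rise in gcn5 kept its call. In the mutants other than gcn5 the length slopes did not overlap those of Col-0, so trend and genotype cannot be told apart there. After the correction ORA59 stood 2.03 above Col-0 in gcn5 and 0.78 above it in spc, and both passed. With the length slope as a covariate ORA59 still passed in gcn5, whereas in spc the value was 0.20 and did not pass (adjusted p = 0.654). After the correction ORA59 did not pass in ada2a (0.57, adjusted p = 0.0621), in ada2b-c (-0.39, adjusted p = 0.149), in ada2b-cada2a (0.14, adjusted p = 0.615) or in ada2b-cspc (-0.07, adjusted p = 0.799). In ada2b-c the lower ORA59 signal thus stood beside higher PDF1.2A, PDF1.2C and PDF1.3, before the correction, and after it ORA59 passed in neither direction while all 4 defensins were higher.

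ERF1, a second ethylene response factor that binds the GCC box, had a pattern of its own. It stood at 33.2, 49.0 and 44.3 in gcn5, at 124, 169.5 and 168 in ada2a, at 122.6, 189 and 145 in spc and at 41.7, 44.0 and 69.6 in Col-0. In ada2b-cspc, ada2b-cada2a and ada2b-c it averaged 21.7, 28.6 and 35.0. The ada2a and spc libraries lay above all others, while those of gcn5 overlapped with Col-0. ERF1 rose by 1.58 ± 0.38 in ada2a (adjusted p = 0.00425) and by 1.55 ± 0.38 in spc (adjusted p = 0.00331), and these rises were 1.21 and 1.12 after the correction and passed again. With the length slope as a covariate they were 1.18 (adjusted p = 0.0773) and 1.08 (adjusted p = 0.145) and did not pass. In gcn5 the difference of -0.27 did not pass (adjusted p = 0.623), nor did that of -0.53 in ada2b-c. ERF1 fell by 1.32 in ada2b-cspc, to 21.7 ± 12.9, against 51.8 ± 15.5 in Col-0, a call that the correction ended (-0.35, adjusted p = 0.402). Per kilobase of transcript, ERF1 signal was 42.6 in gcn5 and 52.4 in Col-0, and ORA59 signal 1791 in gcn5 and 509 in Col-0, so ORA59 was the more abundant of these activators in both.

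The upstream sequences of PDF1.2A, PDF1.2B, PDF1.2C and ORA59 are shown because the branch is defined by binding of the GCC box. The stretches shown for the PDF1.2 copies also differ in exact matches to it. Each is the stretch of 300 nt before the annotated transcript start (RefSeq, TAIR10.1), read 5′ to 3′ along the gene. Capitals mark an exact GCC box (GCCGCC, or GGCGGC on the other strand) or an exact G-box (CACGTG, the same on both strands), the element bound by MYC proteins. The motifs do not overlap each other.
PDF1.2A, chr5:17907639-17907938, minus strand: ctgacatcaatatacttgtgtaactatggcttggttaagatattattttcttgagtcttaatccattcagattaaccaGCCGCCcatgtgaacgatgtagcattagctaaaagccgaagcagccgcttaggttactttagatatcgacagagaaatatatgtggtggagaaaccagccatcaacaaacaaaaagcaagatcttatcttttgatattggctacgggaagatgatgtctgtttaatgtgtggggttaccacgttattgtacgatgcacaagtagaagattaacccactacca
PDF1.2B, chr2:11088823-11089122, plus strand: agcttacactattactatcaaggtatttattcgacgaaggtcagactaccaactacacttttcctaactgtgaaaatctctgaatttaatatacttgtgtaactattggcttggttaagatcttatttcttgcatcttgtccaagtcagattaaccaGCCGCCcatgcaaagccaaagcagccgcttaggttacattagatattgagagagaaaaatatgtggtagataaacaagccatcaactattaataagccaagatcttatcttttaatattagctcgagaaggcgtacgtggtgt
PDF1.2C, chr5:17909508-17909807, minus strand: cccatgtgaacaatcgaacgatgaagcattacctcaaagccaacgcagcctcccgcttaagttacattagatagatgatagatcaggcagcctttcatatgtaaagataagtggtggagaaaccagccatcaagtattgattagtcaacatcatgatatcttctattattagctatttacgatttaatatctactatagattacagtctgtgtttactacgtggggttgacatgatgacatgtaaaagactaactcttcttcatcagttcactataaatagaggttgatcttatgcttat
ORA59, chr1:1882607-1882906, plus strand: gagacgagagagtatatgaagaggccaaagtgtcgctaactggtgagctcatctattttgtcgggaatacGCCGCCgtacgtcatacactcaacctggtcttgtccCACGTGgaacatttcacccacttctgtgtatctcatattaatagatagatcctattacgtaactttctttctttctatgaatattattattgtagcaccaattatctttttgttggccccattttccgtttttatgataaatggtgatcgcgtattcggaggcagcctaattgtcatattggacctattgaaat
A GCC box lies 222 to 217 nt before the start of PDF1.2A, 143 to 138 nt before that of PDF1.2B and 230 to 225 nt before that of ORA59. ORA59 also holds a G-box 194 to 189 nt before its start. No exact match to either motif lies in these windows of PDF1.2C, PDF1.3, ERF1, PR4, VSP1 and VSP2. Among 27438 such windows of the genome, 2.26% hold a GCC box and 7.09% a G-box. In gcn5 the rises were 5.21 for PDF1.2A and 3.71 for PDF1.2B, whose windows hold an exact GCC box. They were 5.93 for PDF1.2C and 4.05 for PDF1.3, whose windows hold none. The PDF1.2C window opens with bases that, in PDF1.2A, end the GCC box and follow it. A box at the matching place in PDF1.2C would cross the window edge and would be missed, so its absence is not shown. A link between motifs and changes was not tested.

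PR4, which encodes a hevein-like chitin-binding protein, had the highest signal per kilobase of the 9 genes in gcn5 and in Col-0. It stood at 32291, 52250 and 82873 in gcn5, against 7821, 10126 and 10678 in Col-0, with no overlap. The rise of 2.46 ± 0.33 (5.49-fold, adjusted p = 8.11e-06) was 2.70 after the correction. In the other mutants PR4 lay between 12813 ± 1123 in ada2b-c and 18701 ± 10793 in spc, against 9542 ± 1515 in Col-0. Of these it passed in spc (0.83, adjusted p = 0.0446) and ada2b-cada2a (0.80, adjusted p = 0.0429). The ada2b-cada2a call was lost without any single library, and the spc call without spc replicate 2 (0.40) or 3 (0.96) or any Col-0 library. After the correction it passed in ada2b-c (1.22), ada2b-cada2a (1.48) and ada2b-cspc (1.33), and not in spc (0.64, adjusted p = 0.0649). Per kilobase, PR4 signal was 49210 in gcn5 and 8414 in Col-0, against 36973 in gcn5 and 946 in Col-0 for PDF1.2A.

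The storage protein genes moved the other way in gcn5. VSP2, which encodes a protein of the acid phosphatase family that is made on wounding, stood at 276, 146 and 112.5 in gcn5, at 2877, 1452 and 1880.2 in spc, at 1603, 1654 and 1281 in ada2a, at 383, 425 and 261 in ada2b-cspc, at 247, 223 and 249 in ada2b-cada2a, at 893, 840.0 and 802.5 in ada2b-c and at 2619, 1903 and 1504 in Col-0. The libraries of gcn5 and of the 3 genotypes with ada2b-c lay below all Col-0 libraries, and those of ada2a and spc overlapped them. VSP2 fell by 3.56 ± 0.29 in gcn5 (11.8-fold lower, adjusted p = 1.18e-08), by 1.21 ± 0.29 in ada2b-c (adjusted p = 0.00111), by 3.03 ± 0.29 in ada2b-cada2a (adjusted p = 3.59e-08) and by 2.48 ± 0.29 in ada2b-cspc (adjusted p = 3.95e-07). After the correction these changes were -3.31, -0.76, -2.60 and -2.03, and all passed. With every library scaled to the same total the fall in ada2b-c was -0.67 and did not pass (adjusted p = 0.102). VSP2 did not pass in ada2a (-0.38, adjusted p = 0.31) or spc (0.02, adjusted p = 0.961).

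VSP1, its neighbour on chromosome 5, fell less. It stood at 2649, 1931 and 1388 in gcn5, at 6557, 3482 and 5127 in spc, at 4545, 5413 and 3166 in ada2a, at 1880, 1606 and 1241 in ada2b-cspc, at 2053, 3005 and 2229 in ada2b-cada2a, at 4333, 3868 and 3983 in ada2b-c and at 5046, 3247 and 3064 in Col-0. The gcn5 libraries lay below those of Col-0, and the ada2b-c libraries lay inside the Col-0 range. VSP1 fell by 0.94 ± 0.27 in gcn5 (adjusted p = 0.0102) and by 1.25 ± 0.27 in ada2b-cspc (adjusted p = 0.000451). It did not pass in ada2b-c (0.14, adjusted p = 0.674), ada2b-cada2a (-0.62, adjusted p = 0.0511), ada2a (0.21, adjusted p = 0.555) or spc (0.41, adjusted p = 0.219). The call in gcn5 was lost without gcn5 replicate 3 (-0.71, adjusted p = 0.0521), without Col-0 replicate 1 (-0.71, adjusted p = 0.0687) and with equal totals (-0.70, adjusted p = 0.0993).

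Both VSP genes are also known to be active in flowers, and markers of floral organs moved with the genotypes. The summed signal of 7 such markers ran from 494 through a median of 669 to 683 in gcn5, from 2586 through 2677 to 2781 in spc, from 2217 through 2325 to 2342 in ada2a, from 169 through 182 to 193 in ada2b-cspc, from 263 through 279.5 to 286 in ada2b-cada2a, from 80.8 through 87.5 to 93.8 in ada2b-c and from 995 through 1270.3 to 1282 in Col-0. Of the 7 markers, 3 were lower in gcn5 and all 7 in the 3 genotypes with ada2b-c, 3 were higher in ada2a and 4 in spc, where 34.3% of all genes were called in gcn5, 39.7% in ada2a, 47.3% in spc and 62.6% to 66.0% in the genotypes with ada2b-c. AG was listed at 0 or near it in every ada2b-c library. The 4 green leaf markers were all lower in the same 4 mutants. The part of organ make-up in the VSP and defensin changes was not tested. The ada2b-c libraries had the lowest floral sums, with VSP2 signal below the Col-0 range and VSP1 signal inside it. Of 4 root markers tested, 2 were higher in ada2b-c and 1 in ada2b-cspc, at low signal. The summed root markers ran from 16.6 to 32.5 in ada2b-c, against 4.27 to 8.75 in Col-0. MYB36 averaged 17.9 ± 6.51 and CASP2 4.31 ± 1.82 in ada2b-c, and both were listed at 0 in every Col-0 library. The other root markers did not lie higher. CASP1 averaged 0.28 ± 0.48 in ada2b-c, against 2.98 ± 2.55 in Col-0. COBL9 and EXPA7 were listed at 0 in every ada2b-c library, against 2.17 ± 2.07 and 0.73 ± 1.23 in Col-0.

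**Figure D3:**
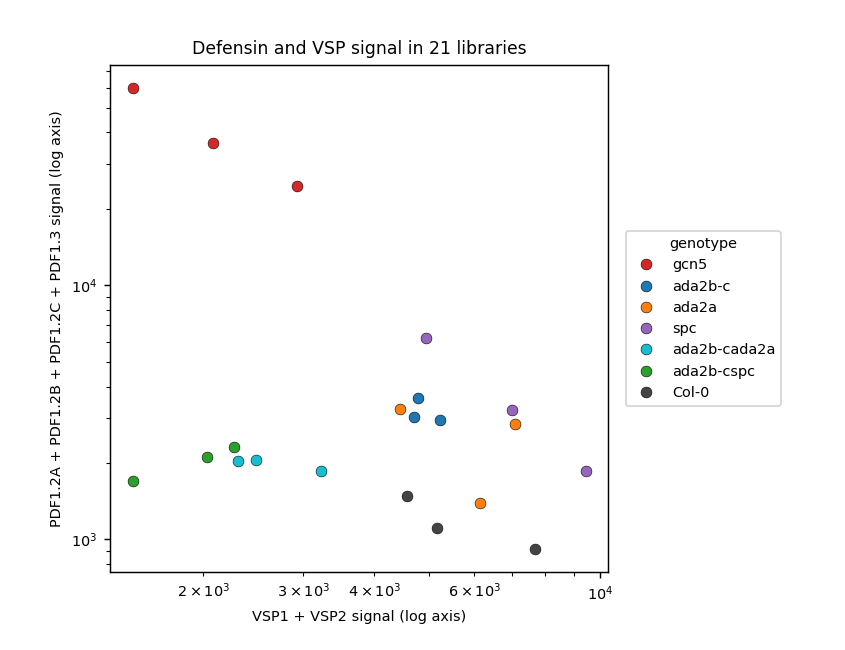
Summed defensin signal (vertical, log axis) against summed VSP1 and VSP2 signal (horizontal, log axis) in each of 21 libraries, coloured by genotype. The gcn5 libraries lie at the top left, with defensin sums of 24720 to 59795, and the Col-0 libraries at the bottom right, with 918 to 1479, while the double mutants lie between 1705 and 2314 in defensin sum.

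Set side by side, the genotypes fell into different combinations of the branches. Summed defensin signal was 40249 ± 17879 in gcn5, 3776 ± 2238 in spc, 2501 ± 983 in ada2a, 2046 ± 311 in ada2b-cspc, 1982 ± 112.3 in ada2b-cada2a, 3196 ± 362 in ada2b-c and 1169 ± 285 in Col-0. In gcn5 defensins were higher and VSP genes lower. VSP2 averaged 178 ± 86.4 in gcn5, 356 ± 85.0 in ada2b-cspc and 240 ± 14.8 in ada2b-cada2a, so the double mutants approached gcn5 in VSP2 but not in the defensin sum. In ada2a and spc neither VSP gene passed the test, whereas with the length slope as a covariate VSP1 was higher in ada2a (0.90, adjusted p = 0.00318) and spc (1.24, adjusted p = 0.000351) and VSP2 in spc (0.83, adjusted p = 0.0339). The comparisons against Col-0 share the same 3 Col-0 libraries, so likeness between them is not independent.

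In ada2b-c and the double mutants the share of the 9 genes called was near the background. In ada2b-c 5 of the 9 genes were called, 3 higher and 2 lower, where 66.0% of all genes were called, and after the correction 6, 5 higher and 1 lower, against 64.5%. In ada2a 6 were called, all higher, against 39.7%, and after the correction 4, with 1 higher and 3 lower, against 33.3%. In spc 7 were called, all higher, against 47.3%, and after the correction 4, with 3 higher and 1 lower, against 37.4%. In ada2b-cada2a 6 were called, 3 higher and 3 lower, against 62.6%, and after the correction 6, with 5 higher and 1 lower, against 58.5%. In ada2b-cspc 6 were called, 2 higher and 4 lower, against 64.6%, and after the correction 7, with 5 higher and 2 lower, against 61.2%. The ada2a count fell to 1 without ada2a replicate 2, ada2a replicate 3 or Col-0 replicate 1 and to 2 without Col-0 replicate 2, the spc count to 4 without spc replicate 2, and the ada2b-cada2a count to 3 without its own replicate 1 or 3 and to 4 without any 1 Col-0 library.

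Within each library the make-up of the defensin family differed between genotypes. PDF1.2C held 31.9% ± 0.71 of the summed defensin signal in gcn5, 17.7% ± 1.15 in spc, 17.7% ± 1.71 in ada2a, 27.6% ± 2.49 in ada2b-cspc, 26.0% ± 0.64 in ada2b-cada2a, 29.1% ± 2.64 in ada2b-c and 17.5% ± 4.10 in Col-0 (SD, n = 3). The 3 libraries of gcn5, of ada2b-c and of both double mutants lay above all Col-0 libraries, and those of ada2a and spc overlapped them. The share of PDF1.2B was below that in Col-0 in the mutants other than ada2a, again with no overlap. PDF1.2B held 11.2% ± 0.49 in gcn5, 24.4% ± 1.80 in spc, 18.0% ± 1.0 in ada2b-cspc, 8.15% ± 0.51 in ada2b-cada2a and 12.7% ± 1.97 in ada2b-c, against 28.1% ± 1.04 in Col-0. In ada2a it held 29.3% ± 3.58 and overlapped with Col-0 (exact permutation p = 0.9). PDF1.3 held 3.63% ± 0.05 in gcn5 and 20.7% ± 2.46 in ada2b-c, against 7.15% ± 1.05 in Col-0. In an exact 2-sided permutation test each of these differences from Col-0 in libraries that did not overlap gave p = 0.1, the smallest p that 3 against 3 libraries allow. The 4 transcripts are of similar length (548 to 620 nt).

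VSP2 likewise lost share to VSP1. It made up 7.99% ± 1.28 of the summed VSP signal in gcn5, 28.9% ± 1.88 in spc, 26.1% ± 2.70 in ada2a, 18.4% ± 2.17 in ada2b-cspc, 9.24% ± 2.05 in ada2b-cada2a, 17.2% ± 0.55 in ada2b-c and 34.7% ± 2.06 in Col-0. Every mutant lay below every Col-0 library, including ada2a and spc, in which neither gene passed the test by itself, and each comparison gave the smallest exact permutation p possible, 0.1. The coding sequences of VSP1 and VSP2 are 87.8% identical and their transcripts shared no window of 150 nt.

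**Figure D4:**
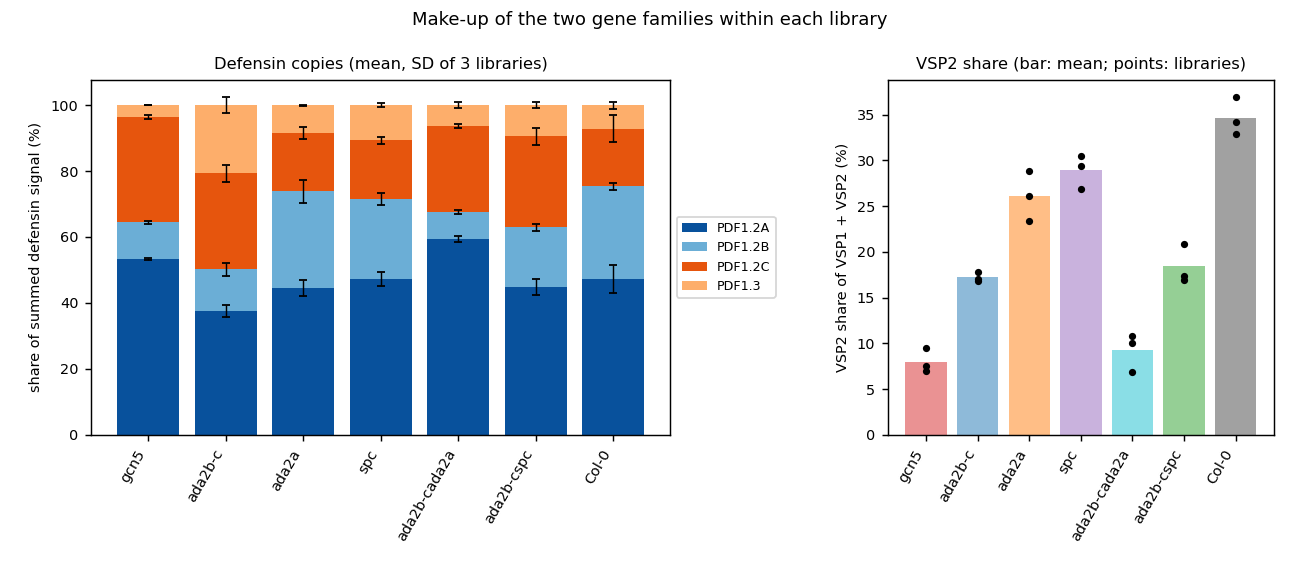
Left, share of summed defensin signal held by each copy (stacked bars at the mean, error bars SD of 3 libraries). Right, share of VSP2 in the sum of VSP1 and VSP2 (bars at the mean, points for libraries). PDF1.2C takes 31.9% in gcn5 and 17.5% in Col-0, and the VSP2 share is 7.99% in gcn5 and 34.7% in Col-0.

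The double mutants were also compared with ada2b-c, to see what the ada2a or spc mutation adds to ada2b-c. PDF1.3 fell by 2.37 ± 0.39 in ada2b-cada2a (adjusted p = 0.000322), to 109, 129 and 143.5, against 581, 712 and 681 in ada2b-c, and by 1.77 ± 0.39 in ada2b-cspc (adjusted p = 0.00581), to 206, 222 and 154. The libraries did not overlap in either comparison. VSP2 fell by 1.81 ± 0.29 in ada2b-cada2a (adjusted p = 0.000249) and by 1.27 ± 0.29 in ada2b-cspc (adjusted p = 0.00755). PDF1.2B fell by 1.31 ± 0.38 in ada2b-cada2a (adjusted p = 0.0214), a call lost when any single library of ada2b-cada2a, or ada2b-c replicate 1 or 3, was left out. VSP1 fell by 1.38 ± 0.27 in ada2b-cspc (adjusted p = 0.00218), and in ada2b-cada2a its change of -0.76 did not pass (adjusted p = 0.0624). In all, 3 of the 9 genes were called in ada2b-cada2a against ada2b-c, all lower, where 15.7% of all genes were called, and 3 in ada2b-cspc against ada2b-c, all lower, where 9.18% were. The length slopes of these genotypes span 0.69 to 1.05. After the correction PDF1.2A (-0.45 and -0.75), PDF1.2B (-1.90 and -0.66) and PDF1.2C (-1.31 and -1.13) were also lower in ada2b-cada2a and ada2b-cspc than in ada2b-c, and all passed. ORA59 did not pass in either comparison (0.67 and 0.40). Both comparisons share the ada2b-c libraries.

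An interaction, the change of a double mutant minus the summed changes of its single mutants, was called for 5 genes with ada2a, all negative, where 13.3% of all genes were called, and for 6 with spc, all negative, where 10.7% were. The count with ada2a fell to 2 without ada2b-c replicate 2 or 3, ada2a replicate 2 or Col-0 replicate 2 and to 3 without ada2b-c replicate 1, ada2a replicate 3, ada2b-cada2a replicate 2 or 3 or Col-0 replicate 1. The count with spc fell to 3 without ada2b-c replicate 3 or ada2b-cspc replicate 3. ORA59 and PR4 passed in neither interaction. The values of the called genes stand in the closing part.

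gcn5 and ada2b-c were set against each other to ask whether mutants of the enzyme and of its adaptor differ in these genes. PDF1.2A was 4.07 ± 0.36 higher in gcn5 than in ada2b-c, where it stood at 1111, 1187 and 1283, and ORA59 3.24 ± 0.33 higher (adjusted p = 1.5e-07). PDF1.2B, PDF1.2C, PDF1.3 and PR4 were 3.39, 3.70, 1.06 and 2.02 higher in gcn5. The PDF1.3 call was lost without gcn5 replicate 3 (0.72), ada2b-c replicate 1 (0.97) or ada2b-c replicate 3 (1.09). VSP1 was 1.08 ± 0.27 lower in gcn5 and VSP2 2.34 ± 0.29 lower. ERF1 did not pass (0.26, adjusted p = 0.582). Thus 8 of the 9 genes were called, where 58.3% of all genes were. After the correction PDF1.2A, PDF1.2B, PDF1.2C, ORA59 and PR4 were 2.2, 1.27, 1.75, 2.42 and 1.48 higher in gcn5, VSP1 and VSP2 stood at -1.29 and -2.54, and PDF1.3 was lower in gcn5 (-0.91, adjusted p = 0.000245). With the length slope as a covariate PR4 (0.25) and VSP1 (0.26) did not pass.

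The wider pathway was described through gene lists, counted over all genes tested. Among 11 ethylene signalling genes, which act above ORA59 and ERF1, 4 were higher and 0 lower in gcn5, 6 and 3 in the ada2b-c mutant, 0 and 7 in ada2a, 0 and 7 in spc, 8 and 0 in ada2b-cada2a, and 8 and 0 in ada2b-cspc, where 34.3%, 66.0%, 39.7%, 47.3%, 62.6% and 64.6% of all genes were called in the same order. Their median changes were 0.53, 0.63, -0.72, -0.82, 0.89 and 1.18, against -0.06 to 0.00 over all genes. The list holds both activators and repressors of ethylene signalling, so neither the counts nor the medians give a direction of signalling. EIN2, which encodes the central membrane protein of the pathway, stood at 5441 ± 225 in ada2b-c, against 871 ± 280.3 in Col-0, a rise of 2.69 ± 0.44 (adjusted p = 2.22e-05) that the correction ended (-0.38, adjusted p = 0.0795). These transcripts are subject to the same length trend. After the correction the counts were 2 and 2, 0 and 6, 1 and 3, 2 and 2, 2 and 4, and 1 and 5, where 41.6%, 64.5%, 33.3%, 37.4%, 58.5% and 61.2% of all genes were. EIN3, the transcription factor that switches on ORA59, changed by 0.15 (adjusted p = 0.773) in gcn5. It rose by 1.28 ± 0.34 in ada2b-c (0.15 after the correction, adjusted p = 0.459). Before the correction EIN3 fell in ada2a (-1.02, adjusted p = 0.0247) and spc (-1.27, adjusted p = 0.00629), whose length slopes did not overlap those of Col-0. EIL1, a close relative of EIN3, stood at -0.48 in gcn5 (adjusted p = 0.0854). Also before the correction, it fell by 0.91 in ada2b-c, by 0.72 in ada2a and by 0.69 in spc.

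Of 10 other ERF genes, 9 were tested. In gcn5 1 was higher and 4 lower, in ada2b-c 1 and 6, in ada2a 6 and 0, and in spc 6 and 0. The counts were 2 and 6 in ada2b-cada2a and 1 and 6 in ada2b-cspc. Of all genes, 34.3%, 66.0%, 39.7%, 47.3%, 62.6% and 64.6% were called in the same order of mutants. After the correction the counts were 1 and 4, 2 and 6, 5 and 1, 4 and 1, 2 and 6, and 2 and 6, where 41.6%, 64.5%, 33.3%, 37.4%, 58.5% and 61.2% of all genes were. ERF5 fell by 2.38 ± 0.25 in gcn5, to 413 ± 125.5 against 2101 ± 257 in Col-0, and also in ada2b-cspc (-4.30), ada2b-cada2a (-4.02) and ada2b-c (-4.14). ERF4, a repressor of this branch, fell by 2.57 ± 0.30 in ada2b-c (adjusted p = 2.99e-07) and rose by 1.25 in ada2a and 1.0 in spc, and in gcn5 it did not pass (-0.58, adjusted p = 0.144). ERF98 rose by 2.34 in ada2a and 2.40 in spc. ERF14 was listed at 0 or near it in Col-0.

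Of 9 other defensin, thionin and chitinase genes, 2 were higher and 2 lower in gcn5, 1 and 3 in ada2b-c, 5 and 0 in ada2a, 7 and 0 in spc, 1 and 3 in ada2b-cada2a, and 2 and 2 in ada2b-cspc, where 34.3%, 66.0%, 39.7%, 47.3%, 62.6% and 64.6% of all genes were called in the same order. After the correction the counts were 3 and 2, 5 and 2, 4 and 0, 5 and 0, 5 and 2, and 5 and 1, where 41.6%, 64.5%, 33.3%, 37.4%, 58.5% and 61.2% of all genes were. The basic chitinase gene CHIB, a known target of ORA59 and ERF1, rose by 2.45 ± 0.19 in gcn5 (adjusted p = 5.98e-09), to 1059 ± 130 against 194 ± 33.7 in Col-0, and by 0.45 in ada2b-c. The thionin gene THI2.1, a jasmonate-induced antifungal peptide gene, fell in gcn5 (-1.18) and ada2b-c (-2.55) and rose by 2.01 in ada2a and 2.85 in spc. Thus, before the correction, not all antimicrobial peptide genes moved as the PDF1.2 genes did.

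On the MYC side, 13 of 14 regulators and outputs were tested, since MYC2 was listed at 0 or near it in all 21 libraries and gives no value here. Of the 13, 3 were higher and 6 lower in gcn5, 1 and 6 in ada2b-c, 3 and 4 in ada2a, 5 and 4 in spc, 4 and 7 in ada2b-cada2a, and 2 and 6 in ada2b-cspc, where 34.3%, 66.0%, 39.7%, 47.3%, 62.6% and 64.6% of all genes were called in the same order. After the correction the counts were 3 and 5, 2 and 9, 3 and 4, 5 and 0, 2 and 8, and 2 and 9, where 41.6%, 64.5%, 33.3%, 37.4%, 58.5% and 61.2% of all genes were. CLH1, a coronatine-induced chlorophyllase gene, fell by 1.54 ± 0.19 in gcn5, to 2352 ± 651 against 6693 ± 299 in Col-0, and also in ada2b-c (-3.91). CORI3, a coronatine-induced lyase gene, fell in gcn5 (-1.49 ± 0.25) and in ada2b-c (-3.66). TAT3, a jasmonate-induced tyrosine aminotransferase gene, rose by 3.37 ± 0.16 in gcn5 (adjusted p = 6.93e-12), to 7289 ± 1241 against 707 ± 123 in Col-0, and by 2.25 in ada2b-c. In gcn5 both VSP genes, CLH1 and CORI3 thus fell while TAT3 rose.

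The genes whose signal ran most like that of PDF1.2A over the 21 libraries, among 18559 genes with a mean of at least 30 and with the 9 genes left out, were ASG1 (AT5G17640, Pearson's r = 0.94), HCHIB (AT3G12500, the basic chitinase gene CHIB, 0.94), PCR1 (AT1G14880, 0.90), BRG2 (AT1G79110, 0.90) and PR1 (AT2G14610, 0.90). Those most like VSP2 were AT3G49160 (0.94), ATB2 (AT1G60710, 0.94), AT1G72110 (0.94), AT4G35985 (0.92) and AT4G06744 (0.92). Among the 9 genes themselves, r with PDF1.2A was 0.97 for PDF1.2C, 0.95 for PR4, 0.88 for PDF1.2B, 0.84 for PDF1.3, 0.63 for ORA59, 0.02 for ERF1, -0.39 for VSP1 and -0.61 for VSP2. These are descriptions over libraries that share genotype and length slope, with no test.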

How the data were processed

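RNA of 21 libraries was sequenced as paired 150-nt reads, per the labels' protocols. The submitters' processing notes list HISAT2, edgeR and bcl2fastq with the TAIR10 build. Versions, the counting program and its strand setting are not given there. The deposited signal per gene is not whole, and no reads or depth could be recovered from it, so no counting interval is given. The plan allowed for counts, and the limma test it named for other values was used.

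R 4.3.3 and limma 3.58.1 were used to test log2(value + 1) of genes with a mean of at least 1 (variance trend, 1 mean per genotype, Benjamini-Hochberg adjustment over 23290 genes) in 11 comparisons. The length and GC correction subtracts splines with 5 degrees of freedom fitted to 18559 genes of mean at least 30. Gene models came from the TAIR10.1 annotation (transcript with the longest coding sequence). The fit was tested on simulated data. The members, lists and alternatives were chosen with earlier results of these data known. From each list at most the 2 called genes with the largest rise and the 2 with the largest fall per mutant were named, with EIN3, EIL1, MYC2 and ERF4, and the 5 genes most like PDF1.2A and VSP2. Alternatives covered the pseudocount, filters, the samples in the fit, a replicate block, equal totals, the length trend, summed PDF1.2 copies and leaving out libraries.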

Additional observations from a re-analysis of the deposited data

Results flagged for a closer look

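For 11 values the change in a double mutant differed from the sum of the changes in its single mutants, by the interaction term of the limma fit, all in the negative direction. With ada2a the interaction was -2.40 ± 0.53 for PDF1.2B (adjusted p = 0.00727), -1.92 ± 0.59 for PDF1.2C (adjusted p = 0.0382), -3.64 ± 0.55 for PDF1.3 (adjusted p = 0.000439), -1.90 ± 0.54 for ERF1 (adjusted p = 0.0259) and -1.43 ± 0.41 for VSP2 (adjusted p = 0.0283). With spc it was -1.93 ± 0.51 for PDF1.2A (adjusted p = 0.0223), -2.31 ± 0.59 for PDF1.2C (adjusted p = 0.0194), -3.90 ± 0.55 for PDF1.3 (adjusted p = 0.00023), -2.34 ± 0.54 for ERF1 (adjusted p = 0.01), -1.79 ± 0.38 for VSP1 (adjusted p = 0.0065) and -1.29 ± 0.41 for VSP2 (adjusted p = 0.0497). Both interactions share the Col-0 and ada2b-c libraries. Those of VSP2 lost their call with equal totals (-1.17, adjusted p = 0.12, with ada2a and -1.08, adjusted p = 0.149, with spc), without 7 and 10 single libraries out of 12 each, and without the filter on low values. PDF1.2C with ada2a lost its call without any 1 library of ada2b-c or ada2b-cada2a, ada2a replicate 2 or 3, or Col-0 replicate 1 or 2. ERF1 with ada2a lost its call without ada2b-c or ada2a replicate 2 or 3, ada2b-cada2a replicate 3, or Col-0 replicate 1 or 2. With spc, PDF1.2A and PDF1.2C lost theirs without ada2b-c replicate 3, spc replicate 2, ada2b-cspc replicate 3 or Col-0 replicate 1. PDF1.2A with spc also lost it without Col-0 replicate 2.

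For PDF1.3, before the correction, the single mutants were all above Col-0 and the double mutants were lower than the sum. It averaged 127 ± 17.3 in ada2b-cada2a and 194 ± 35.4 in ada2b-cspc, beside 658 ± 68.4 in ada2b-c, 211 ± 80.8 in ada2a, 401 ± 233 in spc and 85.3 ± 31.3 in Col-0. After the length and GC correction the change of PDF1.3 in ada2a was negative, so not every single mutant lay above Col-0. The interactions of PDF1.3 were then -2.54 with ada2a and -2.67 with spc and passed.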

How the results depend on the processing

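The counts of called genes moved most under the alternatives. For ada2b-cada2a against Col-0 3 of 9 genes passed for changes of at least 1, 3 without a filter on low values and 3 with PDF1.2A, PDF1.2B and PDF1.2C summed. For ada2a 2 passed without the filter, 1 in a fit of the groups compared alone, 2 with equal totals and 1 (VSP1) with the length slope as a covariate, and for spc 2 in the fit of the groups alone, 4 after the length and GC correction and 2 (VSP1 and VSP2) with the covariate. The interaction with ada2a had 3 without the filter and 3 with the copies summed, and that with spc 3 without the filter. For ada2b-cada2a against ada2b-c 7 passed in the fit of the groups alone, 6 after the correction, 7 after it with the replicate block, 5 with the covariate and 5 without the 4 libraries of lowest slope, and for ada2b-cspc against ada2b-c 6, 6 with the block and 5 with the covariate. Leaving out 1 library at a time gave 7 to 8 for gcn5 against Col-0, 5 to 5 for ada2b-c, 1 to 7 for ada2a, 4 to 7 for spc, 3 to 5 for ada2b-cada2a, 5 to 6 for ada2b-cspc, 2 to 3 and 3 to 3 for the double mutants against ada2b-c, 7 to 8 for gcn5 against ada2b-c, and 2 to 6 and 3 to 6 for the interactions with ada2a and spc.

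Direction reversed after the correction, with and without the replicate block, for PDF1.2A, PDF1.2B, PDF1.2C and PDF1.3 in ada2a (-0.57, -0.65, -0.54 and -0.31), for PDF1.2A, PDF1.2B and PDF1.2C in spc (-0.035, -0.41 and -0.075), for PDF1.2B and ORA59 in ada2b-cada2a (0.77 and 0.14), and for PDF1.3 in gcn5 against ada2b-c (-0.91). With the slope as a covariate it reversed for ORA59 and VSP1 in ada2b-c (0.49 and -1.49), PDF1.2A and PDF1.2C in ada2a (-0.076 and -0.082), PR4 in spc (-0.26), PDF1.2B and ORA59 in ada2b-cada2a (1.12 and 0.86), ORA59 in ada2b-cspc (0.68), and PDF1.3 and VSP1 in gcn5 against ada2b-c (-0.99 and 0.26). The cause was not tested. Equal totals shifted the median of all genes by -0.37 (ada2a) to 0.40 (ada2b-c). Of 1056 changes of single genes under settings other than leaving out 1 library, 888 kept their call or stayed uncalled, 20 of which changed sign without being called. Of 702 with 1 library left out 599 did, 5 of which changed sign without being called, and no called change reversed.

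Replicate numbers were not taken as pairs, though the check was not clear-cut. Over all genes tested, deviations of libraries with one number correlated at 0.09 to 0.38 in gcn5 with Col-0 and 0.04 to 0.27 in ada2a with Col-0, 2 of 3 pairs over 0.1 in each, and no label ties a number to a batch. Among genes with a mean of at least 30 all 3 pairs passed 0.1 in both (0.23 to 0.66 and 0.16 to 0.47). With the replicate number as a block 8, 5, 7, 7, 7 and 7 of the genes passed in gcn5, ada2b-c, ada2a, spc, ada2b-cada2a and ada2b-cspc against Col-0, and none was lost. With the block 6 changes became called, namely PR4 in ada2a (0.69), VSP1 in ada2b-cada2a against Col-0 (-0.62) and ada2b-c (-0.76), PDF1.2A in ada2b-cspc (0.75), and the interactions of VSP1 with ada2a (-0.97) and PDF1.2B with spc (-1.48). The 3 libraries of each genotype and the unknown depth limit all values.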

Other observations

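Salicylic acid is the hormone of defence against biotrophic pathogens, and its pathway is known to hold down the ORA59 branch. Of 9 of its genes, 5 were higher and 0 lower in gcn5, 9 and 0 in the ada2b-c mutant, 3 and 5 in ada2a, 4 and 3 in spc, 7 and 0 in ada2b-cada2a, and 9 and 0 in ada2b-cspc, where 34.3%, 66.0%, 39.7%, 47.3%, 62.6% and 64.6% of all genes were called in the same order. After the length and GC correction the counts were 6 and 0, 8 and 0, 3 and 3, 3 and 2, 8 and 0, and 8 and 0, where 41.6%, 64.5%, 33.3%, 37.4%, 58.5% and 61.2% of all genes were. PR1, a secreted defence protein gene and the usual marker of the hormone, rose by 5.11 ± 0.29 in gcn5 (limma, adjusted p = 7.8e-11). Its signal there was 14726 ± 5360, against 416 ± 93.3 in Col-0, beside the rise of PDF1.2A. The PR1 mean was not raised in gcn5 alone. Every other mutant also had a mean above that of Col-0, the lowest being 1658 (ada2a) and the highest 3892 (spc). WRKY51, a transcription factor gene, rose by 4.94 in gcn5, 2.0 in ada2a, 4.37 in ada2b-cspc, 3.90 in ada2b-cada2a and 3.74 in ada2b-c. GRX480, which encodes a glutaredoxin known to repress PDF1.2 when overexpressed, rose by 4.45 ± 0.37 in spc and 2.82 in ada2a. Before the correction it was also called higher in ada2b-c and ada2b-cspc, where all 9 genes were.

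SAG12, a marker of senescing leaves, stood at 66.6 to 93.9 in gcn5, at 38.6 to 56.2 in spc, at 111 to 209 in ada2a, at 291 to 457 in ada2b-cspc, at 8.43 to 14.2 in ada2b-cada2a, at 0 to 5.82 in ada2b-c and at 1.29 to 6.35 in Col-0.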
